A study of Mus musculus with 6 samples.

Results

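The nuclear genes for the subunits of respiratory complexes I, II and III were followed across 6 one-colour arrays of samples labelled as mouse aorta. Members were all genes whose single symbol in the platform annotation begins with Ndufa, Ndufb, Ndufc, Ndufs, Ndufv or Uqcr, together with Sdha, Sdhb, Sdhc, Sdhd and Cyc1, leaving out the Ndufaf assembly factors and pseudogenes. Where a gene had several probe sets, the one with the highest mean signal over the 6 arrays was used. This gave 49 of 19938 genes with a symbol of their own, with 36 in complex I, 4 in complex II and 9 in complex III. All 49 passed the filter on dim probe sets, and 3 probe sets that list several symbols were left out. The knockout group was 3 samples from Trail-/- animals that came from Amgen, and the control group was 3 samples from wild-type animals. All 6 carry the strain label C57Bl6/J, were taken at 6 weeks of age and have no treatment named. Trail is the death ligand encoded by Tnfsf10, and the series asked for the overall effect of its loss on aortic expression. The labels do not say whether animals were pooled or how samples of a group relate, so a p-value here reflects only how far these samples spread, which may be technical.

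Complex I takes electrons from NADH and complex II from succinate, and both pass them to ubiquinone in the inner mitochondrial membrane. Complex III moves them on to cytochrome c, and complexes I and III pump protons that drive ATP synthesis. Complex II is also the succinate dehydrogenase of the citric acid cycle. Tissues that burn fuel fast, such as brown fat, heart and oxidative muscle, carry more of these complexes than most others. In a bulk sample, fewer cells of a type and less RNA per cell cannot be told apart.

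Several measures of the samples bear on what follows. The targeted gene, Tnfsf10, gave log2 signals of 5.02, 4.48 and 4.09 on knockout 1, 2 and 3, of 4.90 and 4.85 on wild type 2 and 3, and of 8.42 on wild type 1, so 1 of 3 wild-type arrays stood above all knockouts. Except on wild type 1, these values lay under 5.86, the mean signal below which probe sets were filtered out as dim. Whether its probe set covers the deleted sequence was not tested. Smooth muscle markers were present on all arrays, with list medians of 9.38 to 10.61. They mark smooth muscle as such and do not by themselves identify aorta. The array labelled wild type 1 differed from the other 5 in genes of other tissues. Its skeletal muscle median, over 20 markers, was 5.84 against 11.10 to 11.69 elsewhere, and its squamous epithelium median, over 12 markers, was 5.01 against 10.02 to 10.33. Its brown fat median, over 15 markers, was 9.60 against 6.34 to 6.49, with 14 highest there and Zic1 lowest (5.45 against at least 5.79). Its white fat median, over 14, was 11.13 against 7.56 to 8.64. Its cardiac muscle median, over 10, was 9.22 against 6.14 to 7.06, with 6 of the 10 highest there and 2, Nppb and Actc1, lowest. Skeletal muscle and squamous epithelium genes were high on the other 5 arrays, which carry the aorta label too. The endothelium median, over 11 markers, was 8.78 on wild type 1 against 7.18 to 8.02, with all 11 highest there. The part of these tissue genes in the results below was not tested, and neither was whether any of the 6 samples is what its label says. Every mean and genotype difference carries that doubt. The results are given with and without wild type 1, the array that stood apart.

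The respiratory chain genes were high together on the array labelled wild type 1 and close to level on the other 5 arrays. Of the 49 members, 48 had their highest value there, against 37.9% of all 14046 probe sets tested. On that array 32 of 49 were over 2-fold above every other array (6.27% of all probe sets tested), and 45 of 49 were over 1.5-fold above (12.3%). The median over the members was 10.60 on wild type 1 and 9.23 to 9.39 on the other 5. The median excess of wild type 1 over the mean of the other 5 was 1.24 on the log2 scale, a 2.36-fold level. For all genes past the filter the same median was 0.06. It was 1.21 after quantile normalization and 1.32 after median centring, with 48 of 49 members highest under both. These are values of a single array, so they carry no test.

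**Figure D1:**
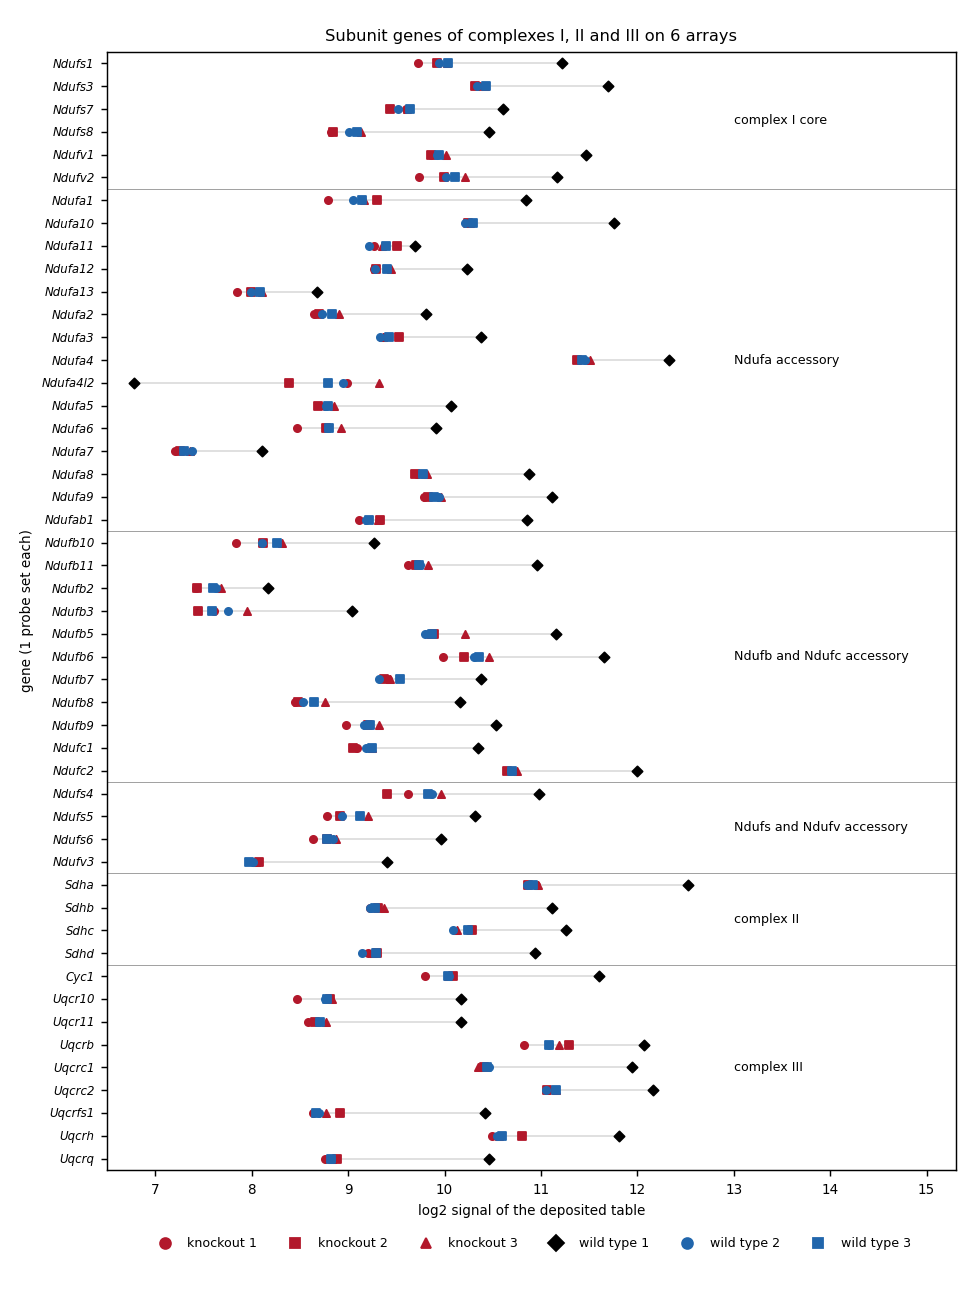
Log2 signal (x axis) of each of the 49 subunit genes (y axis, grouped by role) on each array; red marks are knockout 1 to 3, blue marks wild type 2 and 3, and black diamonds wild type 1. Wild type 1 is the highest array in every row except Ndufa4l2, where it is the lowest at 6.77; signals of different genes come from different probe sets and are not to be compared with each other.

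The core of complex I carries the redox chain from NADH to ubiquinone. It was represented by 6 nuclear genes, each highest on wild type 1, with a median excess of 1.31. Ndufv1, whose subunit holds the flavin that accepts electrons from NADH, gave 9.85, 9.85 and 10.02 on knockout 1, 2 and 3 and 11.46, 9.92 and 9.94 on wild type 1, 2 and 3. Ndufs8, an iron-sulfur subunit, gave 8.82, 8.84 and 9.14 in the knockouts and 10.46, 9.004 and 9.09 in the wild types. For both genes the wild-type arrays other than the first lay inside the range of the knockouts. Ndufs1, the large iron-sulfur subunit of the NADH-binding arm, gave 9.73, 9.92 and 10.03 against 11.21, 9.94 and 10.03. Ndufs7, which holds the last iron-sulfur cluster before ubiquinone, had the smallest excess of the core genes, 1.04, with 9.60, 9.43 and 9.61 against 10.60, 9.52 and 9.64.

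The Ndufa genes encode accessory subunits that wrap the core, and they were the most uneven of the groups. Of 15, 14 were highest on wild type 1, with a median excess of 1.05 and a range from -2.11 to 1.76. Ndufa1, a small membrane-arm subunit needed for assembly, was the upper end, with 8.79, 9.30 and 9.16 in the knockouts and 10.84, 9.05 and 9.14 in the wild types. Ndufab1, the mitochondrial acyl carrier protein, which also serves fatty acid synthesis, gave 9.11, 9.33 and 9.31 against 10.86, 9.18 and 9.21. Its second probe set had a like excess, 1.56 against 1.63. Ndufa11, a membrane-arm subunit, had the smallest excess among the members highest on that array, 0.34, with 9.26, 9.50 and 9.35 against 9.69, 9.22 and 9.39. Here wild type 1 stood only 0.18 above the next array, and the gene's second probe set had an excess of 0.62. Among the Ndufa genes Ndufa13 followed at 0.67 and Ndufa7 at 0.81.

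Ndufa4 and Ndufa4l2 differ from the other Ndufa genes in role. The product of Ndufa4 was named for complex I but is found with cytochrome c oxidase, and Ndufa4l2 encodes its paralogue, known to be induced in low oxygen through HIF-1. Ndufa4 gave 11.40, 11.37 and 11.51 in the knockouts and 12.32, 11.46 and 11.43 in the wild types, in the pattern of the other members. Ndufa4l2 ran the opposite way, with 8.98, 8.39 and 9.32 in the knockouts and 6.77, 8.95 and 8.79 in the wild types. Wild type 1 was therefore its lowest array, with a log2 difference of -2.11 from the mean of the others, and this was -2.10 after quantile normalization and -2.03 after median centring. It was the 1 member of 49 over 2-fold below every other array there, against 7.41% of all probe sets tested. It was also the most variable member on the other 5 arrays, with a range of 0.93 between knockout 2 and knockout 3. On wild type 1 the pericyte list had a median of 8.83 over 8 genes, against at most 8.31 elsewhere. The skeletal muscle (5.84 against 11.10 to 11.69) and squamous epithelium (5.01 against 10.02 to 10.33) medians were lower there. Of the 8 fibroblast genes 6 were lowest there, with a median difference of -0.51 from the mean of the others. The smooth muscle list had a median difference of -0.20 between wild type 1 and the mean of the others. Of its 12 genes 4 were lowest on wild type 1 and 2 were the highest of the 6 arrays. Among the lowest, Actg2 (8.03 against at least 10.67) and Des (7.86 against at least 11.18) lay more than 2-fold under all the other arrays. The part of any cell type in the Ndufa4l2 value was not tested.

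The Ndufb and Ndufc genes encode accessory subunits of the membrane arm, where protons are pumped. All 11 were highest on wild type 1, with a median excess of 1.24 and a range of 0.61 to 1.59. Ndufb8 was the upper end, with 8.45, 8.48 and 8.76 in the knockouts and 10.16, 8.53 and 8.64 in the wild types. Ndufb2 was the lower end, with 7.42, 7.43 and 7.68 against 8.16, 7.62 and 7.59. Ndufb6 gave 9.98, 10.20 and 10.46 against 11.65, 10.30 and 10.35, and Ndufb9 gave 8.98, 9.21 and 9.32 against 10.53, 9.17 and 9.23. In each of these 4 genes knockout 3 was the highest of the other 5 arrays.

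The remaining accessory genes of complex I, Ndufs4, Ndufs5, Ndufs6 and Ndufv3, were all highest on wild type 1, with excesses of 1.17 to 1.38. Ndufs4, a matrix-arm subunit whose loss causes a Leigh-like encephalopathy in mice, gave 9.62, 9.40 and 9.97 in the knockouts and 10.98, 9.87 and 9.83 in the wild types. Knockout 1 and 2 were thus below both remaining wild-type arrays and knockout 3 above them. Ndufs5 gave 8.78, 8.92 and 9.20 against 10.31, 8.94 and 9.12. Ndufs6, a zinc-binding subunit, gave 8.63, 8.78 and 8.87 against 9.96, 8.84 and 8.78. Ndufv3, an accessory subunit of the NADH-binding arm, gave 8.03, 8.07 and 8.04 against 9.41, 8.01 and 7.97.

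Complex II had the largest excess of the 3 complexes on wild type 1, a median of 1.65 over its 4 genes, against 1.49 for complex III and 1.24 for complex I. The order was the same after quantile normalization (1.60, 1.42 and 1.18) and median centring (1.73, 1.56 and 1.31). Sdhb, the iron-sulfur subunit, had the largest excess of all 49 members, 1.84 or 3.57-fold, with 9.23, 9.31 and 9.37 in the knockouts and 11.12, 9.23 and 9.28 in the wild types. Sdha, the flavoprotein that oxidises succinate, gave 10.95, 10.87 and 10.97 against 12.52, 10.85 and 10.92. Sdhd, a membrane anchor, gave 9.21, 9.30 and 9.26 against 10.94, 9.15 and 9.29. The other anchor, Sdhc, had an excess of 1.06, with 10.24, 10.29 and 10.13 against 11.26, 10.09 and 10.24.

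Complex III had 9 genes, all highest on wild type 1, with excesses of 0.98 to 1.68. Uqcrfs1, the Rieske iron-sulfur protein, was the upper end, with 8.64, 8.91 and 8.77 in the knockouts and 10.42, 8.70 and 8.67 in the wild types. Cyc1, cytochrome c1, which hands electrons to cytochrome c, gave 9.79, 10.09 and 10.03 against 11.60, 10.05 and 10.04. Uqcrc1, a core protein of the matrix side, gave 10.38, 10.40 and 10.35 against 11.94, 10.46 and 10.44, so that all 3 knockouts lay below all 3 wild types. The small subunit gene Uqcrq gave 8.76, 8.89 and 8.83 against 10.46, 8.83 and 8.82. Uqcrb, another small subunit, was the lower end, with 10.82, 11.29 and 11.19 against 12.07, 11.08 and 11.09, and its other 2 probe sets had excesses of 1.02 and 1.10.

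The other genes of the pathway were described from lists over the same array. Complex IV subunits had a median excess of 1.18 on wild type 1, with 14 of 15 highest there, and complex V subunits one of 0.81, with 12 of 15. Those over 2-fold below every other array were Cox6a2, an isoform of a complex IV subunit, at -2.54, and Atp5g1, a subunit of the membrane ring of complex V, at -1.49. Atpif1, the inhibitor of complex V, was also lowest there, at -0.88. Cox7a1 and Cox8b, isoforms of complex IV that are also on the brown fat list, were at 1.57 and 2.24. Among electron carriers and coenzyme Q genes, 12 of 13 were highest on wild type 1 (median 1.36), led by Etfb at 2.20, Coq6 at 2.16 and Etfdh at 2.02; Etfb and Etfdh feed electrons from fatty acid oxidation into ubiquinone. All 13 citric acid cycle genes were highest there (median 1.58). Assembly factors had smaller medians, 0.87 for complex I (17 of 18 highest) and 0.72 for complexes II and III (9 of 10). The complex I assembly factor Foxred1 reached 2.23. Regulators of mitochondrial biogenesis had a median of 0.40, with 11 of 16 highest. Among these were Ppara at 2.22, Ppargc1b at 1.76 and Ppargc1a, also on the brown fat list, at 1.13. Nrf1 was at -0.01 and Gabpa at 0.33.

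**Figure D2:**
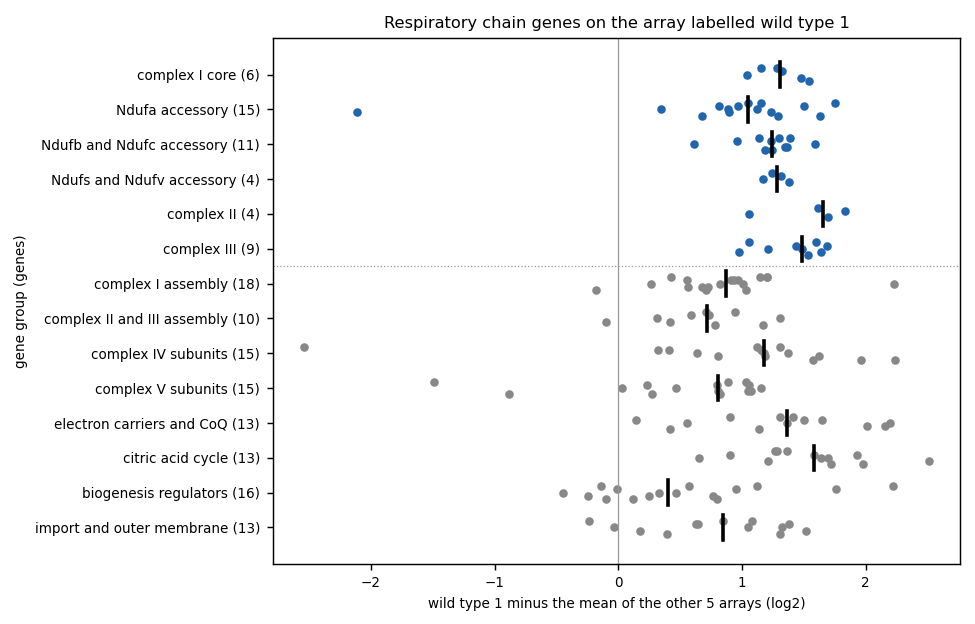
Log2 signal of wild type 1 minus the mean of the other 5 arrays (x axis) for the subunit genes by role (blue) and for other mitochondrial gene lists (grey), with the number of genes in brackets; each point is a gene and each bar the median of its group. Complex II has the highest subunit median at 1.65, and Ndufa4l2 is the blue point at -2.11.

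**Figure D3:**
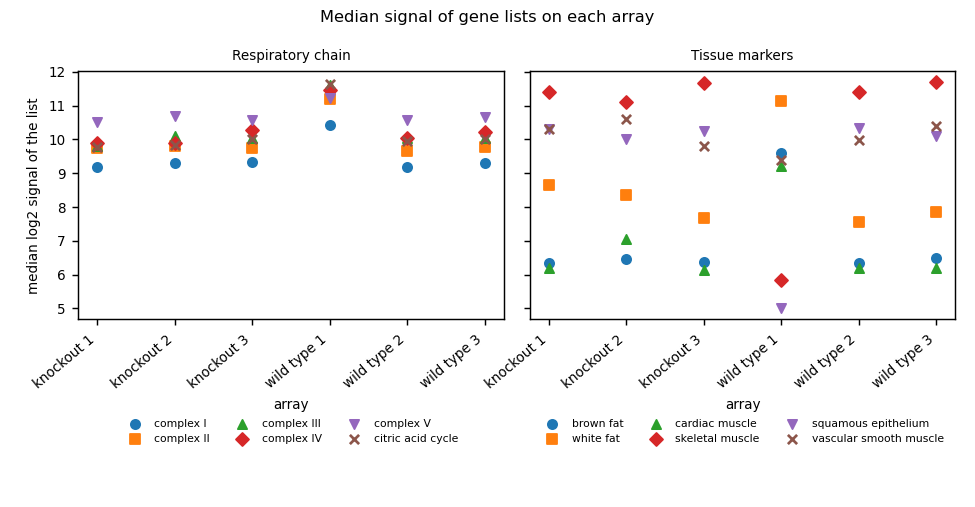
Median log2 signal (y axis) of respiratory chain lists (left) and tissue marker lists (right) on each of the 6 arrays (x axis); each mark is the median of a list. The respiratory chain medians are highest on wild type 1, where the brown fat median is 9.60 and the skeletal muscle median 5.84.

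Promoter sequences were read because 48 of 49 members were highest on the same array, to show letters that some of their start regions hold. RefSeq promoter windows (GRCm38.p6, 250 bases before to 50 after the start) matched 40 of 49 members by symbol. A consensus motif of the factor NRF1 was found on either strand in 9 of 40 members, 22.5% against 5.19% of all 27025 genes with a window. The ETS motif CCGGAAG, bound by GABP among other factors, was found in 8 of 40, 20% against 9.93%. A YY1 consensus motif was found in 4 of 40 (Ndufa9, Ndufs4, Ndufs6 and Ndufs7), 10% against 0.995%, with first bases at positions 25 to 36 from the start. The ERR motif TCAAGGTCA was found in 1 member, Sdhd (2.5% against 0.466%), and the shorter AAGGTCA, which lies within it, in 3 (7.5% against 5.38%). Of the others searched, CCAAT stood at 32.5% against 41.1%, GGGCGG at 40% against 38.2%, CACGTG at 5% against 8.09%, ACGTG, which lies within CACGTG, at 20% against 21.8%, and CGGAAGTG, which overlaps the ETS motif, at 7.5% against 3.86%. These are counts of letters and not of bound sites. A total of 10 motifs were searched.

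The 110 bases before the start are shown for 6 members, from 5′ to 3′ on the gene's strand, with NRF1 and ETS matches of either strand in capitals. Sdha (chr13:74350241-74350350, minus strand) has 3 NRF1 matches, beginning 98, 55 and 10 bases before the start. Sdhd (chr9:50603850-50603959, minus strand) has an NRF1 match at 79 bases and an ETS match at 46. Ndufs3 (chr2:90904722-90904831, minus strand) and Uqcr11 (chr10:80406822-80406931, minus strand) have an ETS match, and Ndufs6 (chr13:73328483-73328592, minus strand) has an NRF1 match. Ndufa11 (chr17:56717652-56717761, plus strand), the member with the smallest positive excess on wild type 1, also has an NRF1 match, which reads the same on both strands.
Sdha: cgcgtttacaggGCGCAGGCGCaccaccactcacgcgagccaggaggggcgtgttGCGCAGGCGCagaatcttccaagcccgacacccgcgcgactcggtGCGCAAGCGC
Sdhd: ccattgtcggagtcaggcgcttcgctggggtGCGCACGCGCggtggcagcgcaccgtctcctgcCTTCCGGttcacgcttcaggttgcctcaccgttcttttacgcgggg
Ndufs3: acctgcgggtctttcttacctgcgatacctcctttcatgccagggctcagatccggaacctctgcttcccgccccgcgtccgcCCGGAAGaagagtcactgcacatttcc
Ndufs6: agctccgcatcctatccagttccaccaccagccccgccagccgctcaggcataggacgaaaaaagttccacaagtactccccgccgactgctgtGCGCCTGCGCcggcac
Uqcr11: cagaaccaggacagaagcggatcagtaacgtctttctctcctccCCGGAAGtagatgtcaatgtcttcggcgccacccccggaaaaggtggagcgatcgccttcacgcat
Ndufa11: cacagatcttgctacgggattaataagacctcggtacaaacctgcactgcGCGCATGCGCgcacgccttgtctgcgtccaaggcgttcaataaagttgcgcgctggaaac

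Between the genotypes, 48 of 49 members had a lower mean in the knockout on all 6 arrays, against 56.5% of all probe sets tested. Knockout minus wild type had a median log2 difference of -0.45 over the members and -0.03 over all probe sets tested. By complex it was -0.44 for I, -0.52 for II and -0.52 for III. No member passed the test (limma, adjusted p under 0.05, 0% of all probe sets tested). None had an unadjusted p under 0.05 either, a mark that 0.634% of all probe sets reached (0.534% lower and 0.0997% higher in the knockout), and limma without the intensity trend or with robust moderation gave 0 as well. The limma adjusted p was 0.921 for 48 members and 0.949 for Ndufa11. Wild type 1 set both the means and the errors. Sdhb, for example, had a mean of 9.30 ± 0.07 (SD, n = 3) in the knockout and 9.87 ± 1.08 (SD, n = 3) in the wild type, a difference of -0.57 (SE 0.53, 95% interval -1.87 to 0.73).

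The largest differences in the groups of complex I were those of Ndufa4l2 at 0.73 (SE 0.63), Ndufa1 at -0.60 (SE 0.51), Ndufs8 at -0.58 (SE 0.41), Ndufs4 at -0.57 (SE 0.35) and Ndufb6 at -0.55 (SE 0.40). Ndufs4, with a limma unadjusted p of 0.164, had the lowest p of all members. In complex III they were Cyc1 at -0.59 (SE 0.45), Uqcrc1 at -0.57 (SE 0.42) and Uqcrq at -0.55 (SE 0.47). The smallest was that of Ndufa11 at -0.06 (SE 0.16), which was 0.00082 after quantile normalization. Uqcrc1 was the 1 member whose groups did not overlap, with the knockouts lower, which 4.29% of all probe sets tested showed.

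Without wild type 1 the members were nearly level between the arrays labelled knockout and those labelled wild type. On these 5 arrays Tnfsf10 did not separate the labels, since wild type 2 and 3 lay inside the range of the knockouts. All 5 values were under the filter mark of 5.86, so a gene this dim cannot decide whether the labels hold. The median difference over the 49 was -0.02, against -0.03 over all probe sets tested, and 34 of 49 were lower in the knockout, a share to read beside 58.4% of all probe sets. The range ran from -0.19 for Ndufs4 (SE 0.17) to 0.15 for Ndufb5 (SE 0.14). No member passed (limma adjusted p at least 0.997, 0% of all probe sets tested) or had an unadjusted p under 0.05, against 1.54% of all probe sets (1.22% lower and 0.32% higher). The 95% interval of 47 of 49 members lay within a 1.5-fold change in either direction, which held for 77.2% of all probe sets tested. The exceptions were Ndufs4 (-0.60 to 0.22) and Ndufa4l2 (-0.60 to 0.65). With all 6 arrays 1 member, Ndufa11, had so narrow an interval, against 51.4% of all probe sets tested. On the 5 arrays the knockouts lay below both wild types for 1 member, Uqcrc1 (8.45% of all probe sets tested), and above both for 1, Ndufv3 (4.13%).

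**Figure D4:**
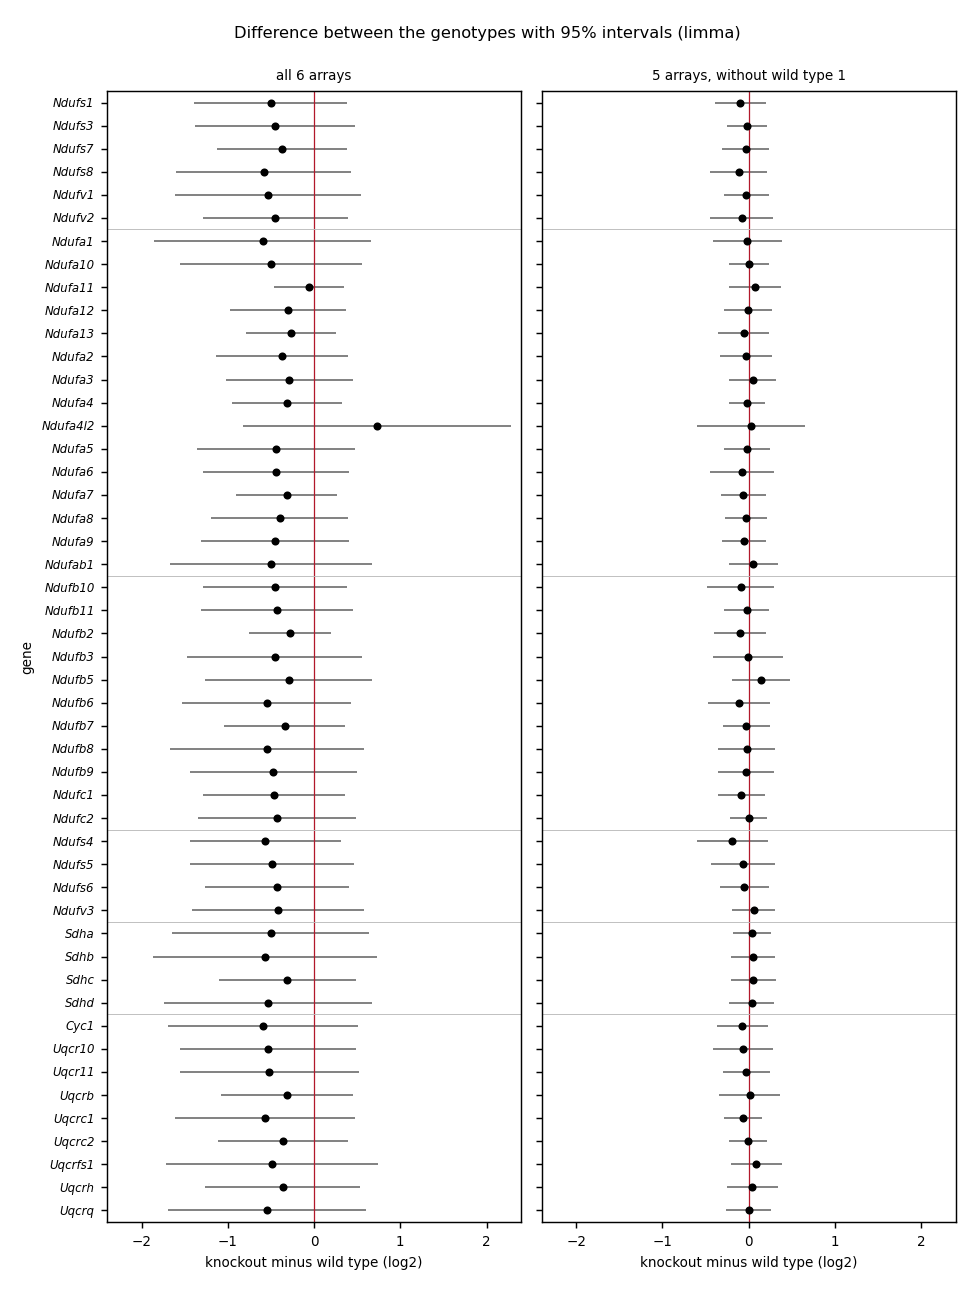
Log2 difference between the genotypes, knockout minus wild type (x axis), for each subunit gene (y axis), with limma 95% intervals as bars, on all 6 arrays (left) and on the 5 arrays without wild type 1 (right). On 6 arrays 48 of 49 points lie below 0 and every interval includes 0; without wild type 1 the points lie between -0.19 and 0.15.

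In the member genes the 5 arrays other than wild type 1 differed from each other by little. Other probe sets differed by up to 8.66, between knockout 1 and knockout 2. The range over the 5 arrays had a median of 0.22 for the members, against 0.36 for all probe sets tested. Ndufa10 was the narrowest member, with values from 10.21 to 10.29. Knockout 1, the array with lung epithelium genes (list median 7.28 against at most 5.46), was the lowest of the 5 for 27 of 49 members, while it was lowest for 19.7% of all probe sets tested. Knockout 3 was the highest of the 5 for 30 members, 25 of them in complex I, and for 16.5% of all probe sets tested. Knockout 2, with stomach genes (list median 12.42 against at most 6.79), was the lowest of the 5 for 10 members, all in complex I, and for 35.8% of all probe sets tested. It was the highest of the 5 for 12 members, and for 2623 of all 12038 genes past the filter. In complex II wild type 2 was the lowest of the 5 for all 4 genes (14.5% of all probe sets tested). The 4 differences of complex II without wild type 1 were 0.04 for Sdha, 0.05 for Sdhb, 0.06 for Sdhc and 0.04 for Sdhd, each with an SE of 0.09 to 0.11. The count of members lower in the knockout moved when wild type 1 and 1 further array were left out. It was 16 of 49 without knockout 1 (59.8% of all probe sets tested were lower), 28 without knockout 2 (56.2%) and 37 without knockout 3 (57.5%). It was 38 without wild type 2 (51.4%) and 25 without wild type 3 (61.9%), where the lone wild-type array is assumed to vary like the knockouts. These 5 runs were added after seeing the data, and in each 0 of 49 passed limma after adjustment. In the run without knockout 3, Ndufs4 differed by -0.34 (SE 0.13, 95% interval -0.66 to -0.03, limma unadjusted p 0.0376, adjusted p 0.612). It was the 1 member under an unadjusted 0.05 in that run, a mark that 7.93% of all probe sets reached, and the other 4 runs had 0.

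The other lists of the pathway also gave no call in the same fits. With all 6 arrays, 16 of 16 tested complex I assembly genes, 9 of 9 for complexes II and III, 13 of 13 electron carrier and coenzyme Q genes and 13 of 13 citric acid cycle genes were lower in the knockout, as were 13 of 15 complex IV and 12 of 15 complex V genes. In limma 0 of these genes passed after adjustment, and 0 reached the unadjusted mark of 0.05. Without wild type 1 the counts were 12 of 16, 7 of 9, 8 of 13, 7 of 13, 4 of 15 and 6 of 15, again with 0 passing. Of the genes for mitochondrial import and the outer membrane 13 of 13 were lower with 6 arrays and 11 of 13 without wild type 1, and of the biogenesis regulators 12 of 15 and 8 of 15, with 0 passing either fit. The regulator Pprc1, a relative of Ppargc1a named here for this value, had an unadjusted p of 0.0457 without wild type 1, with a difference of -0.26 (SE 0.11, limma adjusted p 0.997).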

How the data were processed

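The deposited table holds log2 values for 35399 probe sets, 1 column per sample. The log base was read from the range, 1.55 to 13.96. How the authors scaled and summarised the arrays is not stated; the submitters' processing notes name MAS5 without version or role, and per the labels' protocols cRNA was made from 6 ug of Trizol RNA. No pseudocount was added to the deposited log2 values. How dim values were summarised could change small differences.

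Groups and numbers came from the titles. Of 23410 annotated probe sets, 21789 have 1 gene symbol. Those in the lowest 40% by mean over 6 arrays were left out, and 14046 were tested in limma 3.58.1 (R 4.3.3), two-group model, intensity trend, Benjamini-Hochberg adjustment at 0.05, tested on simulated data. The number of arrays limits precision.

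Named members were the 3 largest and the smallest difference per role, all of complex II, Ndufa4, Ndufa4l2, Ndufab1, and the 2 highest and 2 lowest differences without wild type 1. Other members were named after their values were seen. Members, lists and motifs were chosen with earlier results of these data known. Alternatives were quantile normalization, median centring, a pseudocount of 64, other filters and moderation, array weights, a replicate block, averaged probe sets and left-out arrays.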

Additional observations from a re-analysis of the deposited data

How the results depend on the processing

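The count of passing probe sets and of passing members was 0 under every alternative run. The median difference of the members, -0.45, lay between -0.41 and -0.49 under the alternatives that kept all 6 arrays at equal weight, and was -0.07 with array weights. On leaving out arrays it ran from -0.66 to 0.02, for complex I from -0.64 to 0.01, for complex II from -0.83 to 0.09 and for complex III from -0.77 to 0.04; the count of members lower in the knockout ran from 16 to 48. The positive values all lacked wild type 1. The runs that drop wild type 1 and 1 more array were added after seeing the data; complex II reached 0.0934 without wild type 1 and 3.

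Of 27 named members, 16 kept their sign without wild type 1. The others ran, over the left-out arrays, from -0.16 to 0.072 (Ndufa11), -0.79 to 0.052 (Ndufab1), -0.54 to 0.15 (Ndufb5), -0.66 to 0.058 (Ndufv3), -0.80 to 0.040 (Sdha), -0.89 to 0.053 (Sdhb), -0.53 to 0.055 (Sdhc), -0.86 to 0.037 (Sdhd), -0.48 to 0.014 (Uqcrb), -0.79 to 0.091 (Uqcrfs1) and -0.82 to 0.00062 (Uqcrq). With array weights, whose fit stopped short of full convergence, the sign turned for Ndufb5 (0.061), Ndufv3 (0.043), Sdha (0.0022) and Uqcrfs1 (0.030), and after quantile normalization for Ndufa11 (0.00082). The cause was not tested. The fit with the replicate number as a block also passed 0 members, with a median difference of -0.45. Same-numbered arrays had correlations of 0.09, -0.23 and 0.20 between their deviations from the group means. The wild-type mean includes wild type 1, the array that stood apart, so every wild-type deviation depends on that array. These correlations therefore cannot decide whether the numbers mark pairs. The main fit did not treat the numbers as pairs. Signal over background was not given, so precision rests on the 6 arrays.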

Other observations

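Among the regulators of mitochondrial biogenesis, Esrrg, an oestrogen-related nuclear receptor, stood apart on a single knockout array rather than on wild type 1. It gave 7.15, 9.17 and 7.07 on knockout 1, 2 and 3 and 7.37, 7.15 and 7.02 on wild type 1, 2 and 3. Knockout 2 is the array whose stomach epithelium list had a median of 12.42. The member median there was 9.33, against 9.23 to 9.39 on the other arrays except wild type 1. Among the arrays without wild type 1, knockout 2 had the highest median for complex II (9.80 against at most 9.76). The same held for complex III (10.09 against at most 10.05) but not for complex I (9.31 against at most 9.33).

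Tnni3, the cardiac troponin I, gave 7.73 on knockout 2 and 7.47 on wild type 1 and at most 5.70 on the other 4 arrays. Of the 10 cardiac genes 6 were highest on wild type 1, among them Myh6 at 9.64 and Nppa at 8.61, against at most 5.45 and 5.63 elsewhere. Nppb (5.17) and Actc1 (11.36 against at least 12.30) were lowest there, and Pln was not the highest. Ucp1, the uncoupling protein of brown fat, gave 12.32 on wild type 1 and at most 4.59 elsewhere.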
